A study of Homo sapiens with 6 samples.

Results

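The genes described here span at least 100 kb between their first and last annotated base and nevertheless gave at least 1.2 times as many CPM (reads counted on the gene, relative to the total of their library) after nitidine chloride as after DMSO. They were chosen in 3 steps from the gene table: a span of at least 100 kb, a mean of at least 2 CPM over all 6 libraries, and a ratio of mean CPM, nitidine chloride over DMSO, of at least 1.2. Of the 50868 genes in the table, 2525 passed the first 2 steps and 115 of these, or 4.55%, passed the third. The cells were HEK-293T, a transformed human embryonic kidney line, of wild-type genotype per the labels. They were exposed for 12 h to 10 µM nitidine chloride, a benzophenanthridine alkaloid, or to DMSO as the control, and mRNA libraries were sequenced, 3 per group. The labels do not say whether the 3 libraries of a group came from separate cultures.

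RNA polymerase II copies a gene from its start to its end, so a longer gene takes longer to copy, and agents that slow or block elongation lower long transcripts more than short ones. A gene's span in an annotation is the distance between its outermost ends, whereas a given cell may use a start site far inside that span and make a much shorter transcript. Counts per gene add up all transcripts of a gene and do not say which start site was used. Reads in exons that belong to several annotated genes can be assigned to any of them, depending on the counter.

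SGK1 and NEDD9, both among the 115, show what a start site inside the span looks like. SGK1 encodes the serum- and glucocorticoid-regulated kinase, which acts downstream of mTORC2 on ion channels and transporters. NEDD9 encodes a docking protein of the Cas family at focal adhesions. In the table, SGK1 lies on the minus strand at chr6:134169246-134318112 and NEDD9 on the minus strand at chr6:11183298-11382348 (GRCh38). Below are 300 bases around an inner and the outer start site of each, 250 before and 50 after the start, from RefSeq on GRCh38.p14, shown because the inner starts give transcripts of a small part of the gene. Capitals mark TATAAA, the core of a TATA box, on either strand. The inner windows are chr6:134174817-134175116 for SGK1 and chr6:11232619-11232918 for NEDD9, and the outer ones are chr6:134318063-134318362 and chr6:11382299-11382598, all on the minus strand.
SGK1 inner start: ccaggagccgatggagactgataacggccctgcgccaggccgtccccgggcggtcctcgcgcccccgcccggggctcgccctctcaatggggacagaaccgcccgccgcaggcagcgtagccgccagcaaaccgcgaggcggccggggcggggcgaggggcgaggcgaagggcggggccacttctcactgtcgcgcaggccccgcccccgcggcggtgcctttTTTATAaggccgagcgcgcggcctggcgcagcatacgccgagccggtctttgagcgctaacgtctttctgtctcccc
SGK1 outer start: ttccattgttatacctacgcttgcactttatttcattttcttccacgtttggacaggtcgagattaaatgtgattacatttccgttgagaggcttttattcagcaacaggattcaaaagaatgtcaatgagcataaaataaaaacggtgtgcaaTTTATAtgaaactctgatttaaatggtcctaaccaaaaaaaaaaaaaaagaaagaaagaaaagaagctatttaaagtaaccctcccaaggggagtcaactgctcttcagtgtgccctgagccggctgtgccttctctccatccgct
NEDD9 inner start: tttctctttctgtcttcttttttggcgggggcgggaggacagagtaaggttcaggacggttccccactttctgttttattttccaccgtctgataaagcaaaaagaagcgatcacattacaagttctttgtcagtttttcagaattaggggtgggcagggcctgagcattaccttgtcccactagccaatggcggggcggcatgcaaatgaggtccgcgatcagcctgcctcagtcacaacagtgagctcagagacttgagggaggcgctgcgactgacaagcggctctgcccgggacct
NEDD9 outer start: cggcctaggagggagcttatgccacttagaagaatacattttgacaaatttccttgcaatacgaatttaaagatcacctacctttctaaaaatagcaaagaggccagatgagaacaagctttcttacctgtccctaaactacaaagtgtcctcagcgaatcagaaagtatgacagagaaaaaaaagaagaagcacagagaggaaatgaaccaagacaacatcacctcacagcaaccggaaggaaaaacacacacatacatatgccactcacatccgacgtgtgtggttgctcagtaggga

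The inner start of SGK1 lay 143.2 kb inside the gene, in a window with 73.3% G or C and 41 CpG dinucleotides, against 38% and 7 CpG dinucleotides at the outer start. The inner start of NEDD9 lay 149.7 kb inside, with 52.7% G or C and 13 CpG dinucleotides, against 42% and 6 at the outer start. The order was reversed in TSC22D1 and SESN1, also among the 115. The inner window of TSC22D1 had 66.7% G or C and 19 CpG dinucleotides, against 78% and 45 at the outer start. That of SESN1 had 58% and 18, against 75% and 28 at the outer start. RefSeq windows were found for 88 of the 115 genes, 188 windows in all. TATAAA on either strand was in 8.51% of them, in 8.33% of the 3566 windows of the other long genes at this level, and in 11.5% of all 35116 windows. The AP-1 motif TGANTCA was in 5.85% of the windows of the 115 genes, in 5.89% of those of the other long genes and in 7.71% of all windows. The other motifs searched on both strands were TGACGTCA, in 1.06%, 1.91% and 1.85% of windows in the same order, TTGCATCA, in 1.06%, 0.897% and 0.866%, and CACGTG, in 6.91%, 7.71% and 7.26%. The 115 genes and the other long genes thus held these letters at similar shares in these windows.

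An inner start can also change the protein. The first 60 coding bases of a short and a long transcript of SGK1, TSC22D1 and SESN1 are given from GENCODE 29 on GRCh38, with the start codon in capitals, because the transcripts of each gene differ at this end and share the other. TSC22D1 encodes a leucine zipper protein first found as induced by TGF-beta, and SESN1 encodes a sestrin, a p53 target that restrains mTORC1.
SGK1-201: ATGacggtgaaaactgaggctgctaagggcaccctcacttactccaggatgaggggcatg
SGK1-204: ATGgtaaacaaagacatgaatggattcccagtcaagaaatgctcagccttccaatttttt
TSC22D1-201: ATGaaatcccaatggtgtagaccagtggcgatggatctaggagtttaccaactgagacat
TSC22D1-203: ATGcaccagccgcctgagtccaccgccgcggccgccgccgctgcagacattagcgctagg
SESN1-201: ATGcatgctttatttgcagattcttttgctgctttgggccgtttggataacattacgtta
SESN1-204: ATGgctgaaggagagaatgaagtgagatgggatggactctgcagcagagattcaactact

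SGK1-201 spans 5.64 kb and codes for 431 residues, against 148.8 kb and 526 residues for SGK1-204, and both end in the same 1218 coding bases. TSC22D1-201 spans 4.70 kb and codes for 144 residues, against 143.0 kb and 1073 residues for TSC22D1-203, with 309 coding bases in common at the end. SESN1-201 spans 22.5 kb and codes for 426 residues, all of which SESN1-204, of 108.4 kb and 551 residues, also holds at its end. The map of coding transcripts shows where these and the transcripts of NEDD9 and LINGO1 start.

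**Figure D1:**
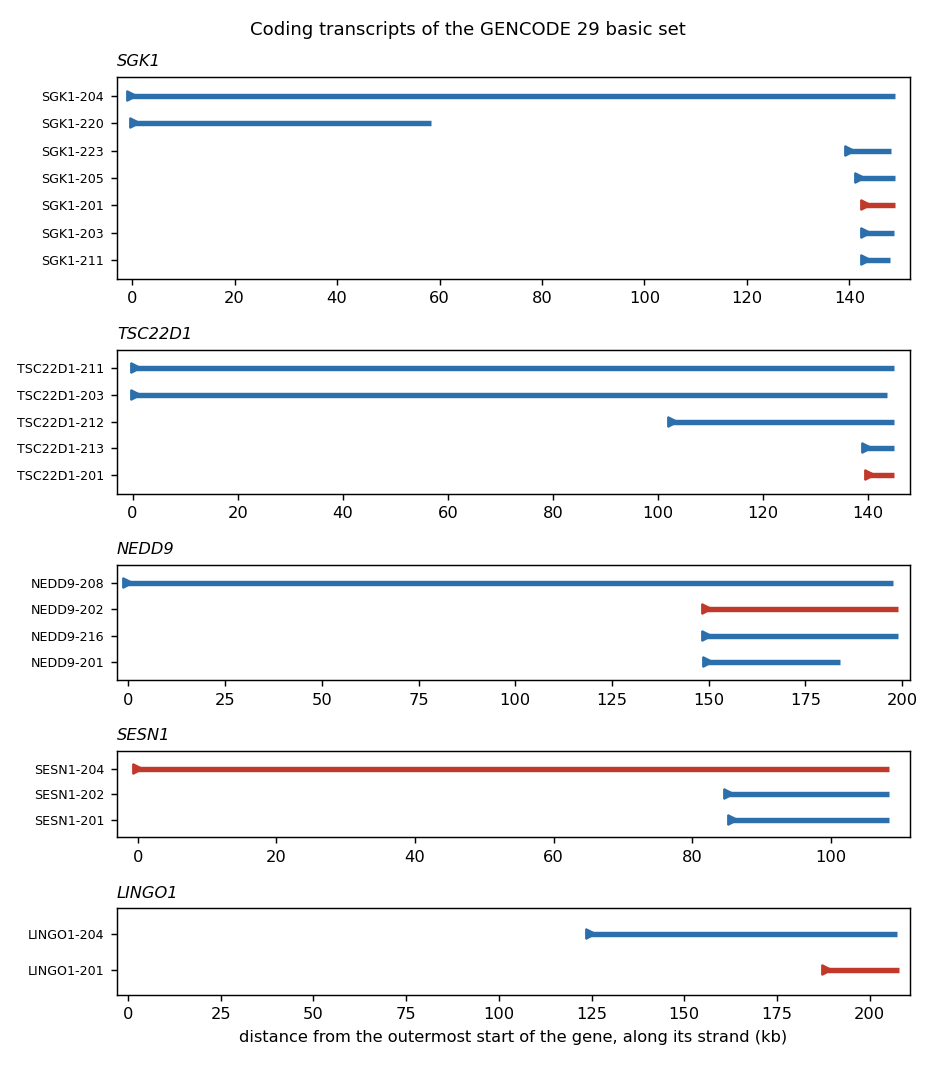
Coding transcripts of SGK1, TSC22D1, NEDD9, SESN1 and LINGO1 in the GENCODE 29 basic set; the x axis is the distance in kb from the outermost start of the gene along its strand, bars are transcripts with a triangle at their start, and red marks the principal transcript. The principal transcripts of SGK1, TSC22D1 and NEDD9 start 143.2, 140.3 and 149.7 kb inside the gene, and that of SESN1 starts at its outer end.

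Library totals ran from 13273432 to 15620937 counts with nitidine chloride and from 12688093 to 16357992 with DMSO, and every one of the 115 genes had a mean of at least 10 counts. HEK-293T markers were present, with NEFM at 120 to 175 CPM and LIN28B at 76.8 to 183 CPM, while CD3E, APOB and TTR were at 0 in every library and COL1A1, a fibroblast marker, was at 28.8 to 57.7 CPM. With edgeR's quasi-likelihood test and Benjamini-Hochberg adjustment over 15953 genes, 3936 genes, or 24.7%, were higher and 4314, or 27%, were lower after nitidine chloride, against 5140 and 3730 when libraries were scaled by their total alone. Scaling by TMM, which centres the bulk of genes, lowered the ratio to a median of 0.930 times its value, a shift of -0.11 on the log2 scale. After it, 85 of the 115 genes still reached 1.2. CSNK1E, EBNA1BP2 and ABL1, described below, were among those that did not, at 1.17, 1.15 and 1.12. In bulk RNA, fewer cells that express a gene and less RNA per cell cannot be told apart.

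The share of genes with a ratio of at least 1.2 was 48% at spans under 5 kb and highest, 64.8%, at 5 to 20 kb. It was 47.5% at 20 to 50 kb and 20% at 50 to 100 kb. Among long genes it was 89 of 1588 (5.6%) at 100 to 200 kb, 23 of 795 (2.89%) at 200 to 500 kb and 3 of 142 (2.11%) at 500 kb or more. Over all 13824 genes at this level it was 39.5%. The 3 genes of 500 kb or more, RUNX1, PCDH9 and EGLN3, had ratios of 1.14, 1.11 and 1.13 with TMM, all under 1.2. Each also left the set when some single library was left out. The ratio itself chose the 115 genes, so it is given below as a description, with no test. It had a median of 1.42 and ran from 1.2 to 3.74 for the 114 genes with counts after DMSO, against a median of 0.483 for the 2410 other long genes. The step of 2 CPM used the mean of both groups, so a gene could pass it through 1 group alone. SLC30A10, FILIP1L, STON1-GTF2A1L and TTC34 averaged 1.40, 1.25, 1.22 and 1.38 CPM with DMSO, and BLOC1S5-TXNDC5 averaged 0. High ratios are favoured by this step in such genes. Among the other long genes the lowest nitidine chloride mean was 0.235 CPM. In 79 of the 115, every nitidine chloride library was above every DMSO library, a pattern that 39.4% of all genes at this level and 3.68% of long genes showed, and nothing is read from this count since the same contrast chose the genes. The 3 genes just inside the ratio were VDR, NDUFA12 and PCDH9, at 1.2, and the 3 just outside it were GALC, DRAM1 and EIF2B5, at 1.19.

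Beyond the span, the rule did not use the annotation. The table span had a median of 138.3 kb in the 115 genes, against 166.1 kb in the other long genes. The principal transcript, the coding transcript with the best APPRIS rank in GENCODE 29, was shorter in the 115 genes. It spanned a median of 64.0 kb in the 106 coding genes of the group, against 148.9 kb in 2358 other long coding genes. It covered less than 100 kb in 68 of 106 (64.2%), against 333 of 2358 (14.1%), and less than 20 kb in 23 (21.7%), against 32 (1.36%). It started at least 50 kb inside the table's span in 40 (37.7%), against 315 (13.4%). In RefSeq, whose gene models differ, the gene itself spanned under 100 kb in 45 of 108 (41.7%), against 151 of 2358 (6.40%). The plain existence of some short transcript separated the sets less: a transcript of at most 20 kb of any kind was annotated in 84.0% against 81.6%, and a coding one in 65.1% against 43.3%. The number of annotated transcripts was close, with a median of 9 against 10. No test was made of these differences in share.

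Read the other way, the share of long coding genes that reached the ratio was lower the longer the principal transcript. It was 23 of 55 (41.8%) under 20 kb, 21 of 82 (25.6%) at 20 to 50 kb, 24 of 264 (9.09%) at 50 to 100 kb and 30 of 1321 (2.27%) at 100 to 200 kb. It was 7 of 632 (1.11%) at 200 to 500 kb and 1 of 110 (0.909%) at 500 kb or more. The median ratio of all long coding genes in these 6 classes ran 1.11, 1.01, 0.747, 0.534, 0.236 and 0.0912. The same order held at a given table span: among genes of at least 250 kb, 7 of 18 (38.9%) reached the ratio where the principal transcript spanned under 50 kb, against 7 of 577 (1.21%) where it spanned 100 kb or more. Among genes of 100 to 150 kb these shares were 26 of 81 (32.1%) and 19 of 778 (2.44%). The plot of ratio against principal span shows both the slope and the scatter around it.

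**Figure D2:**
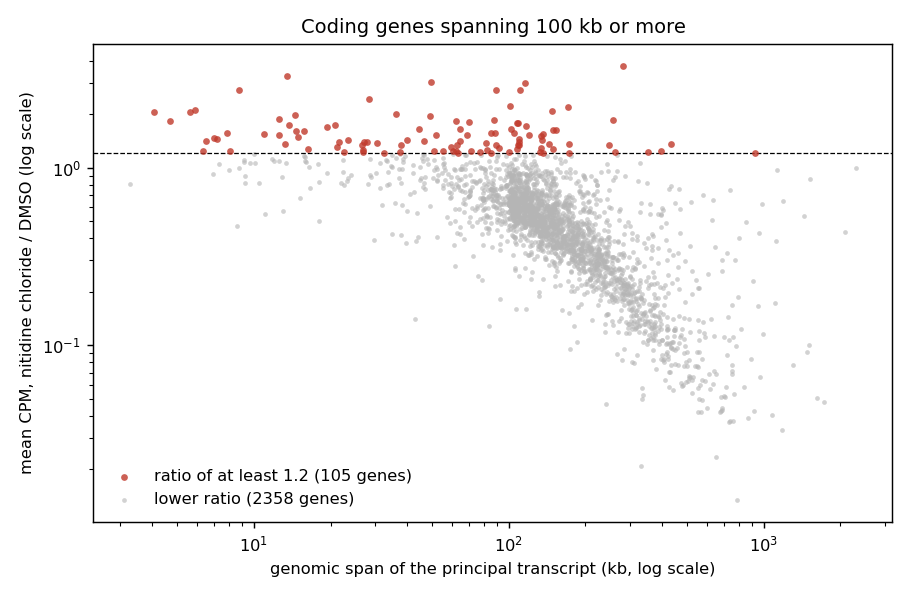
Ratio of mean CPM, nitidine chloride over DMSO, against the genomic span of the principal transcript for coding genes with a table span of at least 100 kb, both axes on log scales; red points reached the ratio of 1.2 (dashed line), grey points did not, and BLOC1S5-TXNDC5, with no counts after DMSO, has no point. Grey points decline with principal span, and red points occur at every span.

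**Figure D3:**
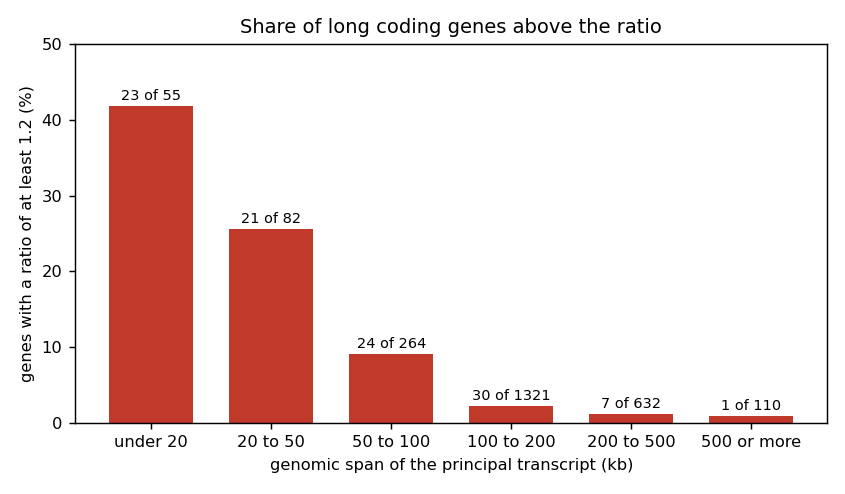
Percentage of long coding genes with a ratio of at least 1.2 in 6 classes of principal transcript span in kb; numbers above the bars are genes reaching the ratio of all genes in the class. The share goes down from 41.8% under 20 kb to 0.909% at 500 kb or more.

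The 115 genes lay on every chromosome but the Y, with the most, 12, on chromosome 1, and fell into classes by structure. In 43 the principal transcript spanned under 50 kb, in 23 it spanned 50 to 100 kb, and in 33 it spanned 100 kb or more, of which 19 had a coding transcript of at most 20 kb as well and 14 had none. A further 7 were readthrough genes, which join 2 neighbouring genes, 8 were noncoding, and C6orf183 was not in GENCODE 29. These counts stand beside 136, 263, 859 and 1194 long coding genes, 14 readthrough genes and 57 noncoding genes of the same span and level. The share reaching the ratio was 31.6%, 8.75%, 2.21%, 1.17%, 50% and 14% in that order. Of the 66 genes with a principal transcript under 100 kb outside readthrough loci, 38 had its start at least 50 kb inside the gene, 19 had it within 1 kb of the outer start and 9 lay between. Genes named below beyond the extremes of ratio, level and span and the members of pathway lists were chosen after their values were seen.

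Among kinases and signalling proteins with a principal transcript under 50 kb, SGK1 was at 14.5, 14.9 and 17.8 CPM with nitidine chloride, against 8.04, 6.66 and 8.38 CPM with DMSO, a ratio of mean CPM of 2.04. NEDD9 was at 7.75, 8.19 and 8.29 CPM, against 2.13, 3.02 and 2.81 CPM with DMSO, a ratio of 3.04. The groups did not overlap for either gene, and no other counted gene lay over either of them. NGEF, a guanine nucleotide exchange factor known as ephexin-1, was at 26.4, 30.9 and 29.2 CPM with nitidine chloride, against 16, 14.8 and 13.6 CPM with DMSO, a ratio of 1.95. Its principal transcript spans 48.9 of 134.6 kb. CSNK1E, casein kinase 1 epsilon of the circadian clock and Wnt signalling, had the highest level of the 115 genes, at 440, 425 and 397 CPM with nitidine chloride, against 302, 379 and 326 CPM with DMSO, a ratio of 1.25. Its principal transcript spans 26.7 kb and starts 81.1 kb inside the gene at chr22:38290691-38398522.

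Several proteins of this class act in the nucleus, on DNA or its transcription. TSC22D1 was at 114, 117 and 107 CPM with nitidine chloride, against 66.1, 56.4 and 63.0 CPM with DMSO, a ratio of 1.82. GINS3, a subunit of the GINS complex of the replicative helicase, was at 83.2, 86.9 and 88.9 CPM, against 52.3, 47.0 and 50.1 CPM with DMSO, a ratio of 1.74. The GINS3 principal transcript spans 13.8 kb of a gene of 111.1 kb at chr16:58295080-58406144 and starts 97.3 kb inside it. MSH6, a mismatch repair protein, was at 137, 124 and 140 CPM, against 108, 90.1 and 90.1 CPM with DMSO, a ratio of 1.39. The lowest nitidine chloride library was above the highest DMSO library for all 3 genes. MSH6 shared 1785 exonic bases, 16.2% of its own, with FBXO11 on the opposite strand, and FBXO11 averaged a ratio of 0.540. HUS1, of the checkpoint clamp, and RMI2, of the complex with the BLM helicase, had ratios of 1.28 and 1.24 and principal transcripts of 16.3 and 6.33 kb. ZNF365, a zinc finger protein, was at 6.5, 4.80 and 6.40 CPM with nitidine chloride, against 1.97, 2.82 and 2.51 CPM with DMSO, a ratio of 2.43, and its principal transcript covers the first 28.3 kb of 297.8 kb.

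Membrane and secreted proteins made up another share of this class. SLC30A10, a manganese exporter, was at 4.38, 4.35 and 5.12 CPM with nitidine chloride, against 1.97, 0.893 and 1.34 CPM with DMSO, a ratio of 3.29. Its principal transcript spans 13.4 of 273.2 kb. CALCB, which encodes beta-calcitonin gene-related peptide, was at 12.3, 15.4 and 13.3 CPM, against 5.52, 4.94 and 4.52 CPM with DMSO, a ratio of 2.73, and its principal transcript of 8.78 kb starts 168.6 kb inside the gene. LINGO1, a Nogo receptor partner that limits myelination, was at 43.1, 45.1 and 42.8 CPM, against 28.0, 27.9 and 21.5 CPM with DMSO, a ratio of 1.69. None of these 3 genes was overlapped by a counted gene, and their groups did not overlap. RCN1, a calcium-binding protein of the endoplasmic reticulum, was at 208, 264 and 326 CPM, against 178, 143 and 218 CPM with DMSO, a ratio of 1.48 with overlapping groups. CLTA, clathrin light chain A, was at 194, 202 and 198 CPM, against 176, 137 and 140 CPM with DMSO, a ratio of 1.31. JCAD, a protein of endothelial junctions, was at 55.5, 58.7 and 58.4 CPM, against 41.0, 39.1 and 42.1 CPM with DMSO, a ratio of 1.41. The groups of CLTA and of JCAD did not overlap. MMP2, a gelatinase, and PRSS23, a serine protease, had ratios of 1.40 and 1.54.

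Proteins of ribosome assembly, mitochondria and oxygen sensing were also in the class. NMD3, the export adaptor of the large ribosomal subunit, was at 151, 102 and 152 CPM with nitidine chloride, against 88.7, 103 and 103 CPM with DMSO, a ratio of 1.38, and the second nitidine chloride library lay within the DMSO range. EBNA1BP2, which works in the maturation of the large subunit, was at 135, 149 and 149 CPM, against 118, 113 and 118 CPM with DMSO, a ratio of 1.24. Its principal transcript of 8.08 kb starts 98.7 kb inside the gene. NDUFA12, a subunit of respiratory complex I, was at 53.3, 36.8 and 36.0 CPM, against 37.2, 37.1 and 30.6 CPM with DMSO, so only 1 nitidine chloride library exceeded all DMSO libraries. EGLN3, a prolyl hydroxylase of the hypoxia pathway, spans 538.5 kb in the table, but its principal transcript spans 26.9 kb and starts 511.7 kb inside. EGLN3 was at 19.9, 19.4 and 22.8 CPM, against 16, 16.1 and 18.6 CPM with DMSO, a ratio of 1.22.

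Proteins of the cytoskeleton and of RNA handling completed the class of short principal transcripts. HOOK2, a dynein adaptor on microtubules, was at 33.8, 43.7 and 42.9 CPM with nitidine chloride, against 19.2, 22.9 and 21.7 CPM with DMSO, a ratio of 1.88. Its principal transcript of 12.5 kb starts 97.2 kb inside the gene, whose span also holds JUNB on the opposite strand, an immediate early gene at 41.5, 40.8 and 33.2 CPM, against 34.8, 31.6 and 31.6 CPM with DMSO. KIFC3, a minus-end-directed kinesin, had a ratio of 1.66 with groups apart. TENT5A, a poly(A) polymerase, was at 52.7, 45.8 and 37.4 CPM, against 28.5, 31.6 and 32.7 CPM with DMSO, a ratio of 1.46. Its principal transcript covers the first 6.98 kb of a span of 261.3 kb, so in this gene the span runs on past the end of that transcript. INTS12, a subunit of the Integrator complex that cleaves nascent RNA, was at 44.2, 35.7 and 40.2 CPM, against 29.6, 32.8 and 27.9 CPM with DMSO, a ratio of 1.33. TRIM5, a restriction factor against retroviruses, had a ratio of 1.39 and a principal transcript of 21.5 kb within 275.1 kb. Over all 43 genes of the class the median ratio was 1.48 and the range was 1.2 to 3.29. The groups did not overlap in 31, beside 39.4% of all genes at this level and 3.68% of long genes with every nitidine chloride library higher. Nothing is read from such counts in this or the other classes, since the same contrast chose the genes.

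The plot of library values shows genes of this class beside some of the other classes.

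**Figure D4:**
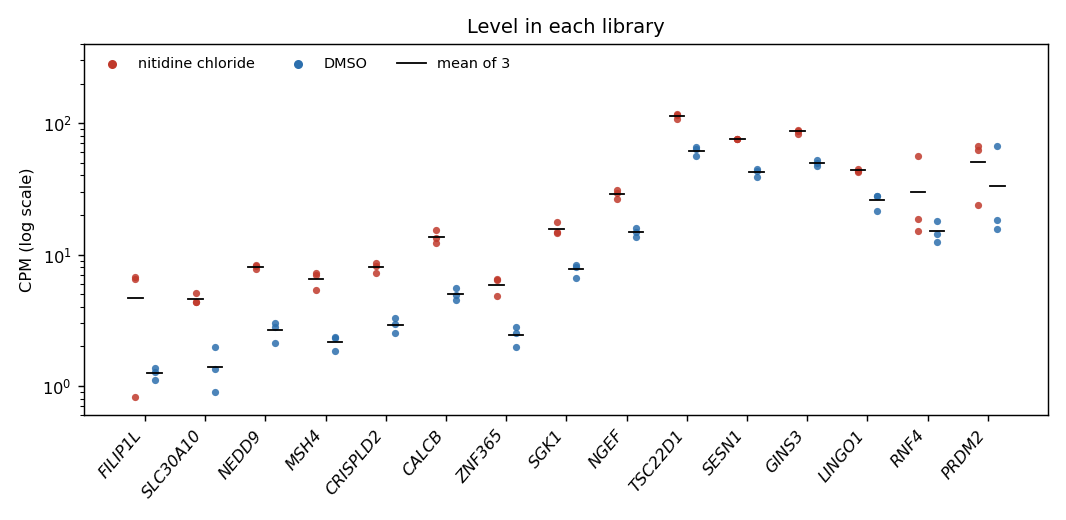
Level in CPM (log scale) of 15 of the 115 genes in each library, with nitidine chloride in red to the left of DMSO in blue and a line at the mean of 3. NEDD9, SGK1 and SESN1 show no overlap between groups, whereas FILIP1L, RNF4 and PRDM2 have single libraries far from the other 2 of their group.

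In the 23 genes with a principal transcript of 50 to 100 kb, the median ratio was 1.34. CRISPLD2, a secreted protein, was at 8.18, 8.58 and 7.23 CPM with nitidine chloride, against 2.52, 2.95 and 3.30 CPM with DMSO, a ratio of 2.73. Its principal transcript covers 89.5 kb of 100.8 kb, so the gene is barely longer than its transcript. PHC2, a subunit of Polycomb repressive complex 1, was at 148, 165 and 149 CPM, against 100, 98.3 and 103 CPM with DMSO, a ratio of 1.53. NLRP1, an inflammasome sensor, was at 19.7, 22.7 and 23.1 CPM, against 10.4, 11.8 and 14.2 CPM with DMSO, a ratio of 1.80. ABCG2, a drug efflux pump, was at 11.5, 11.3 and 9.64 CPM, against 7.41, 6.39 and 7.46 CPM with DMSO, a ratio of 1.53. The groups of these 4 genes did not overlap. VDR, the vitamin D receptor, was at 35, 35.7 and 37.7 CPM, against 31.1, 28.4 and 30.5 CPM with DMSO. PRDM11, a PR/SET domain protein, was at 16.4, 15.5 and 16.4 CPM, against 8.28, 8.45 and 9.41 CPM with DMSO, a ratio of 1.85. MORC4, an ATPase with a zinc finger that reads histone marks, was at 93.3, 84.5 and 91.9 CPM, against 65.7, 73.1 and 66.9 CPM with DMSO, a ratio of 1.31. Both again had groups apart. The transcription factor ETS1 had a ratio of 1.24 and a principal transcript of 60.5 kb that starts 65.3 kb inside the gene.

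In 19 genes the principal transcript spanned 100 kb or more but a coding transcript of at most 20 kb was annotated beside it. FILIP1L, a filamin-interacting protein of chr3:99830141-100114513, had the highest finite ratio, 3.74, from 6.72, 6.53 and 0.829 CPM with nitidine chloride, against 1.1, 1.37 and 1.28 CPM with DMSO. The third nitidine chloride library held 11 counts, against 92 and 102 in the other 2, and lay below all DMSO libraries, and without it the ratio was 5.29. PALLD, the actin-bundling protein palladin, spans 431.4 kb and was at 59.6, 52.9 and 54.1 CPM, against 39.4, 43.3 and 40.5 CPM with DMSO, a ratio of 1.35. Its shortest coding transcript spans 3.82 kb. KIF6, a kinesin of 395.4 kb, was at 5.70, 4.48 and 5.58 CPM, against 4.57, 5.15 and 3.06 CPM with DMSO, and its groups overlapped. PDE4DIP, the centrosome and Golgi protein myomegalin, was at 140, 135 and 143 CPM, against 102, 100 and 105 CPM with DMSO, a ratio of 1.36. The groups overlapped for neither PALLD nor PDE4DIP. NRXN2, a presynaptic adhesion protein with promoters for a long and a short form, was at 12.1, 13.1 and 10.2 CPM, against 6.94, 7.48 and 6.30 CPM with DMSO, a ratio of 1.71. RGS3, which shortens G protein signals, was at 8.84, 10.4 and 9.94 CPM, against 5.67, 5.97 and 6.24 CPM with DMSO, a ratio of 1.63. MRPS22, of the mitochondrial ribosome, spans 351.4 kb and was at 57.6, 59.0 and 54.3 CPM, against 47.0, 48.4 and 44.0 CPM with DMSO, a ratio of 1.23. The groups did not overlap in 9 of the 19, these 3 among them, beside 39.4% of all genes and 3.68% of long genes. The median ratio of the 19 was 1.35.

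In 14 genes neither the principal transcript nor a coding alternative of at most 20 kb was short. SESN1 was at 75.4, 75.1 and 75.1 CPM with nitidine chloride, against 38.7, 44.6 and 43.2 CPM with DMSO, a ratio of 1.78 with groups far apart. Its shorter coding transcript spans 22.5 kb, just past that limit. ABL1, a tyrosine kinase, was at 129, 151 and 140 CPM, against 110, 114 and 124 CPM with DMSO, a ratio of 1.21, and has coding transcripts of 171.7 and 52.6 kb. RUNX1, a transcription factor of blood development, has the longest span of the 115 genes, 1217 kb. Its principal transcript spans 261.5 kb and starts 955.3 kb inside, and the gene was at 11.3, 11.5 and 12.5 CPM, against 10.5, 8.65 and 9.60 CPM with DMSO, a ratio of 1.23. With TMM the ratio of RUNX1 was 1.14. PCDH9, a protocadherin of 927.6 kb whose principal transcript covers 927.0 kb, was at 120, 100 and 124 CPM, against 91.1, 99.4 and 95.9 CPM with DMSO. The ratio of PCDH9 was the lowest of the 115, and a coding transcript of 29.4 kb is annotated. ITIH5, an inhibitor chain that binds hyaluronan, was at 4.31, 4.35 and 3.31 CPM, against 1.81, 2.68 and 2.26 CPM with DMSO, a ratio of 1.77. SPTBN4, the beta-IV spectrin of axons, was at 17.4, 18.4 and 20.6 CPM, against 12.4, 15.0 and 13.1 CPM with DMSO, a ratio of 1.39. Over the 14 genes the median ratio was 1.51. The groups did not overlap in 12, beside 39.4% of all genes and 3.68% of long genes.

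Only 5 genes outside readthrough loci had every coding transcript at 100 kb or more, namely MSH4, DGKK, RAP1GAP2, TLL2 and TTC34. They were 5 of 476 such genes (1.05%), and the other 471 had a median ratio of 0.368. MSH4, which acts in meiotic crossing over, was at 6.94, 5.38 and 7.23 CPM with nitidine chloride, against 2.36, 2.33 and 1.83 CPM with DMSO, a ratio of 2.99. RAP1GAP2, a GTPase-activating protein for Rap1, was at 68.2, 74.2 and 68.9 CPM, against 30.9, 28.3 and 55.3 CPM with DMSO, a ratio of 1.85. The nitidine chloride libraries of both were above all DMSO libraries. TTC34 was at 2.70, 2.62 and 3.31 CPM, against 1.18, 1.85 and 1.1 CPM with DMSO, from 15 to 44 counts per library. DGKK, a diacylglycerol kinase, and TLL2, a tolloid-like metalloprotease, had ratios of 1.57 and 1.28. Each of the 5 was free of overlapping counted genes, and MSH4 and DGKK have a single annotated transcript.

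Overlap with other genes was frequent among the 115 genes and among the other long genes. Another counted gene overlapped 74 of the 115 (64.3%), against 60.2% of the other long genes, and on the same strand 47 (40.9%), against 32.0%. Exonic bases were shared on the same strand in 22 of 114 (19.3%), against 9.46%, and 7 of the 115 (6.09%) were readthrough genes, against 7 of 2410 (0.290%). Several members overlapped, on the opposite strand, a shorter gene that was itself higher after nitidine chloride. PRSS23 shared 1399 exonic bases with FZD4, a Wnt receptor, which was at 73.7, 70.4 and 71.0 CPM with nitidine chloride, against 35, 38.5 and 40.7 CPM with DMSO. BRF1, a subunit of the RNA polymerase III factor TFIIIB, shared 627 with BTBD6, whose ratio was 2.04, and the carboxypeptidase M gene shared 133 with MDM2, the ubiquitin ligase of p53, whose ratio was 1.45. Others overlapped genes with low ratios, such as RBKS, ribokinase, with BABAM2 at 0.126, FAM81A with MYO1E at 0.276 and INTS12 with GSTCD at 0.460. What overlap contributed to the ratio on opposite strands was not tested.

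For the 22 genes with shared exons on the same strand, counts of the gene and its same-strand partners were added up. How the counter treated reads in such exons is not known, so a read could enter the sum once, more than once or not at all. The ratio of the sum was at least 1.2 in 14 of the 22 and below 1 in 6.

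In BLOC1S5-TXNDC5 the counts of the gene and of its main partner went opposite ways. It had 0 counts in every library but the third nitidine chloride library, where it had 3601 counts or 271 CPM. TXNDC5, a protein disulfide isomerase of the endoplasmic reticulum that holds 87.7% of its exonic bases, was at 468, 507 and 195 CPM with nitidine chloride, against 400, 386 and 399 CPM with DMSO. The sum with its 3 partners was 511, 553 and 503 CPM, against 428, 412 and 428 CPM with DMSO, a ratio of 1.24. The library with high readthrough counts thus had low TXNDC5 counts, and the sum was even across libraries.

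The other readthrough genes reported here divided by their sums. STON1-GTF2A1L was at 3.58, 3.52 and 2.86 CPM, against 2.13, 1.1 and 0.428 CPM with DMSO, a ratio of 2.73 alone and 1.70 with STON1. Without the first DMSO library the ratio alone was 4.35. UBE2F-SCLY was at 6.28, 10.8 and 15.7 CPM, against 4.18, 4.88 and 5.69 CPM with DMSO, a ratio of 2.22 alone and 1.37 with SCLY and UBE2F. In both genes every nitidine chloride library was above every DMSO library, and the sums also reached 1.2. SPECC1L-ADORA2A was at 15.7, 21.2 and 18.9 CPM, against 15.2, 1.85 and 8.50 CPM with DMSO, a ratio of 2.18 alone and 0.755 with SPECC1L and ADORA2A. Without its first DMSO library the ratio alone was 3.59. For AL049697.1 the ratio was 1.55 alone and 1.45 as a sum, and for AC091959.3 1.55 and 0.847. In 2 of these 6 loci the summed counts were thus lower after nitidine chloride.

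**Figure D5:**
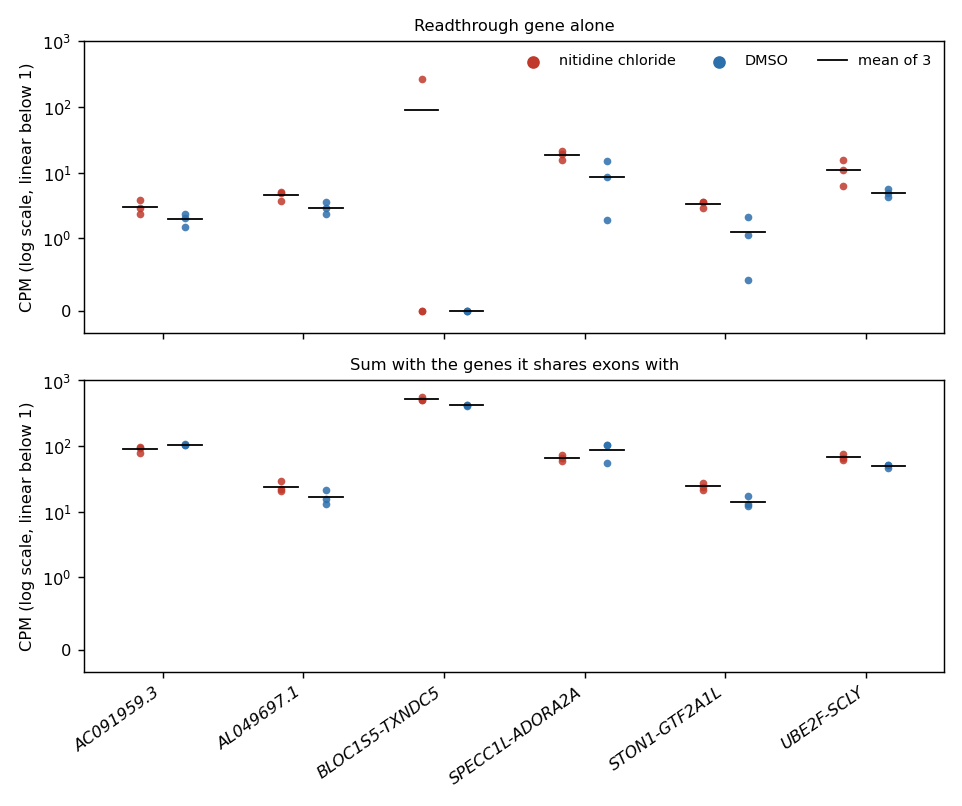
CPM in each library of 6 readthrough genes alone (upper panel) and summed with the genes whose exons they share on the same strand (lower panel), nitidine chloride in red to the left of DMSO in blue, with lines at the mean of 3, on an axis that is logarithmic above 1 and linear below. The single BLOC1S5-TXNDC5 library at 271 CPM stands apart in the upper panel, and the sums of that locus lie between 412 and 553 CPM.

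Exons shared on the same strand also touched 5 genes outside readthrough loci whose libraries were uneven. APOLD1, an apolipoprotein L domain protein of vascular endothelium, was at 3.36, 39.1 and 35.5 CPM with nitidine chloride, against 18.4, 5.22 and 13.2 CPM with DMSO, a ratio of 2.11. It shared 25.4% of its exonic bases with DDX47, an RNA helicase, at 85.6, 53.5 and 66.3 CPM, against 71.4, 73.5 and 70.4 CPM with DMSO, and the ratio of the sum was 1.12. RNF4, a ubiquitin ligase for SUMO-tagged proteins, was at 55.8, 18.6 and 15.2 CPM, against 18, 14.4 and 12.5 CPM with DMSO. Its ratio was 1.99 alone, 1.13 without the first nitidine chloride library, and 0.911 with FAM193A and CFAP99 added. CLDN12, a claudin of tight junctions, had a ratio of 1.52 alone and 0.957 with GTPBP10 and CDK14, and AHRR, the repressor of the aryl hydrocarbon receptor, 1.51 alone and 1.05 with PDCD6. FBXO16, an F-box protein that shares 51.2% of its exonic bases with ZNF395, had 1.24 alone and 0.942 with it. NPIPA1, of a multicopy family whose reads cannot be placed with certainty, had 1.62 both alone and with AC138932.1.

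Libraries of the same group differed at least 2-fold in 20 of the 115 genes (17.4%), against 156 of 2410 other long genes (6.47%). The rule used a ratio of means, so a gene could enter through 1 outlying library. The 115 genes also had a lower level, with a median of 15.1 against 26.9 for mean CPM. What either contributed to the difference in shares was not tested. Of the 20 uneven genes, 10 shared exonic bases on the same strand with a counted gene and 10 did not. PRDM2, a histone methyltransferase gene among the 10 without, was at 23.8, 62.5 and 66.4 CPM with nitidine chloride, against 66.4, 18.3 and 15.5 CPM with DMSO. In RBM33, an RNA-binding protein, the nitidine chloride libraries were at 92.5, 89.6 and 91.1 CPM and the DMSO libraries at 123, 51.3 and 52.1 CPM. The first DMSO library was level with the highest nitidine chloride library in PRDM2 and above all of them in RBM33. The ratio of PRDM2 was 1.52, and 3.01 without that library. ZBTB38, a zinc finger protein that binds methylated DNA, was at 39.8, 14.1 and 17.6 CPM, against 12.1, 14.2 and 12.9 CPM with DMSO, a ratio of 1.82, or 1.21 without the first nitidine chloride library. Leaving out each library in turn, 77 of the 115 met all 3 steps of the rule every time.

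The 8 noncoding genes had ratios of 1.25 to 1.55. PCBP1-AS1, antisense to the RNA-binding protein gene PCBP1, was at 27.6, 25.3 and 29.7 CPM with nitidine chloride, against 18, 16.9 and 18.2 CPM with DMSO, a ratio of 1.55. LINC00662 was at 9.50, 11.1 and 10.3 CPM, against 7.33, 6.52 and 6.85 CPM with DMSO, a ratio of 1.5. Both had nitidine chloride libraries above all DMSO libraries. PCBP1 itself, which shares 914 exonic bases with PCBP1-AS1 on the other strand, averaged a ratio of 1.01. The strand setting of the counting is not given in the sources used here, so reads of antisense pairs cannot be told apart.

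Pathway lists showed how far known stress genes belong to the long genes. Of 55 genes of the integrated stress response, none spans 100 kb, and 38 of 52 tested rose and 6 fell after nitidine chloride, beside 24.7% higher and 27% lower among all genes tested. The list's median log2 fold change was 0.49, against 0.01 over all genes tested. Shorter genes as a whole reached a ratio of mean CPM of 1.2 more often. It was 48% of them at spans under 5 kb, 64.8% at 5 to 20 kb and 47.5% at 20 to 50 kb, against 39.5% of all genes. No list here, the p53 targets below included, was compared with genes of like span. NUPR1, a stress-induced transcriptional cofactor, was at 50.2, 50.7 and 54.0 CPM, against 8.12, 9.34 and 9.35 CPM with DMSO, a log2 fold change of 2.42 ± 0.09 (SE; edgeR, adjusted p = 1.13e-06). CHAC1, which degrades glutathione, rose by 1.95 ± 0.38, while HMOX1, heme oxygenase 1, and EPRS1, a tRNA synthetase, fell by 0.71 ± 0.11 and 0.51 ± 0.06 on the log2 scale. Of 37 immediate early genes, 1 spans 100 kb and none of the 115 was among them. Of the 35 tested, 19 rose and 4 fell, beside the same 24.7% and 27% of all genes, and the median was 0.53, against 0.01 over all genes. CCN2 and FOSL2 rose by 2.16 ± 0.21 and 1.38 ± 0.09, and ID3 and ID1 fell by 1.44 ± 0.08 and 1.36 ± 0.10. Of 37 clustered protocadherins, 28 span 100 kb or more, but 4 were tested, with a median log2 fold change of -0.23. By edgeR 0 of the 4 passed in either direction, 1 had an unadjusted p under 0.05, and DESeq2 and limma-voom also called 0, while edgeR called 1 when no filter on counts was set.

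The p53 targets held 5 long genes, and 21 of the 34 targets tested rose and 3 fell, beside 24.7% and 27% of all genes. The 21 include SESN1, which the ratio of this same contrast chose. The median of the list, SESN1 included, was 0.41 on the log2 scale, against 0.01 over all genes. Whether p53 itself was active in these cells was not tested. SESN1, the 1 that belongs to the 115 genes, is described above. CYFIP2, a subunit of the WAVE actin regulator, spans 129.5 kb and was at 20.4, 23.0 and 21.8 CPM with nitidine chloride, against 41.5, 44.0 and 42.7 CPM with DMSO, and fell by 1.08 ± 0.09 on the log2 scale (edgeR, adjusted p = 3.62e-05). FBXW7, a ubiquitin ligase subunit, fell by 0.81 ± 0.11 (edgeR, adjusted p = 0.000662). DRAM1, a lysosomal regulator of autophagy just outside the ratio, had a log2 fold change of 0.14 ± 0.18 (edgeR, adjusted p = 0.542), and SUSD6 one of -0.24 ± 0.11 (edgeR, adjusted p = 0.111). Of the 5 long targets of p53, CYFIP2 and FBXW7 thus fell, and DRAM1 and SUSD6 passed in neither direction. SESN1 was higher by the rule that chose it. Among shorter targets, PHLDA3, an AKT inhibitor, and PLK2, a polo-like kinase, rose by 1.92 ± 0.13 and 1.41 ± 0.13, and KITLG, the ligand of KIT, fell by 0.89 ± 0.13.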

How the data were processed

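The deposited table held raw read counts and FPKM (which the authors scaled by gene length and depth) per gene for 6 libraries, per the file headers; FPKM was used only as an alternative for the ratio. The submitters' processing notes list HISAT2 2.0.4 and StringTie 1.3.0 without saying what each did. Which counter, strand setting, genome build and annotation were used is not given in these sources. Of the 115 genes, 101 had positions identical to GENCODE 29 on GRCh38, whose transcripts were used for structure; start site windows came from RefSeq on GRCh38.p14. Groups and replicate numbers came from the sample labels. Some results, among them those of 1 readthrough gene, are not reported here.

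CPM is the count scaled to the library total, computed here from the deposited counts. The principal transcript is the coding one with the best APPRIS rank, then the longest RNA. A gene counts as overlapping when it had counts in any library. Background counts and the gene lists came from edgeR 4.0.16 in R 4.3.3 (quasi-likelihood test, TMM, mean of at least 10 counts, no covariate, Benjamini-Hochberg adjustment over 15953 genes, threshold 0.05), which was checked on simulated data. Its p-values measure only the spread between these libraries, which may be technical. Alternatives used DESeq2 1.42.0, limma 3.58.1 and the settings in the closing section. Pairs of libraries in a group differed by more than sampling noise, with chi-square values per degree of freedom of 8.53 to 15.8.

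The 115 genes, the lists and the alternatives were chosen with earlier results of these data known. The rule for named genes took the 12 with the highest ratio, the 8 with the highest mean CPM, the 5 with the longest span, members of the lists, the 3 just inside and the 3 just outside the ratio, the 5 highest-ratio coding genes with a coding transcript of at most 20 kb and the 5 without, and from each list the 2 other genes per direction with the most extreme fold change past the threshold. Other genes described, such as SGK1, TSC22D1, GINS3 and MSH6, are outside this rule and were chosen after their values were seen.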

Additional observations from a re-analysis of the deposited data

How the results depend on the processing

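The number of long genes reaching the ratio, 115 as reported, was 85 with TMM or DESeq2 size factors, 115 with the authors' FPKM, 151 at a ratio of 1.1 and 49 at 1.5, 149 and 92 at a mean of 1 and 5 CPM, and 584 and 26 at spans of at least 50 and 200 kb. It was 41 without genes overlapped by a counted gene and 68 without those overlapped on the same strand. With 1 library left out it was 105 to 121. A short coding transcript was annotated in 84.9% of the members and 64.2% of the other long genes with a limit of 50 kb in place of 20 kb, and a short transcript of any kind in 84.0% and 81.6%. Genes called higher numbered 3229 to 3673 and lower 3828 to 4188 with 1 library left out. Scaling by library total alone gave 5140 and 3730. Clustered protocadherins called higher numbered 1 without a count filter. Same-numbered libraries did not pair: their deviations correlated at 0.0014, -0.055 and 0.040 over genes, and the replicate block gave 3492 higher and 4063 lower. Of the alternative ratios of the named long genes, 37 moved by more than 1 SD, 233 did not and 0 changed direction. This SD was that of the nitidine chloride libraries over the DMSO mean, so the spread of the DMSO libraries did not enter. BLOC1S5-TXNDC5, with no finite ratio, was left out. Depth limits genes near 2 CPM, whose ratios rest on few counts.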
